A study of Homo sapiens with 12 samples.

Results

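The response of SFRP2-overexpressing PC3 cells to a collagen surface was measured by RNA sequencing. PC3 is an established human line derived from a bone metastasis of a prostate adenocarcinoma. PC3SFRP2 cells carry a Sleeping Beauty transposon plasmid with the coding sequence of SFRP2, a secreted protein that binds WNT ligands, and were selected with puromycin and sorted for the red fluorescent marker of the plasmid. The 6 libraries of PC3SFRP2 cells were taken from the 12 libraries of the series by their labels: 3 from T25 flasks coated with rat-tail collagen type I (COL1-PC3SFRP2) and 3 from uncoated flasks (CCP-PC3SFRP2, labelled Nunc). The other 6 come from PC3 cells with the empty plasmid on the same surfaces (COL1-PC3 and CCP-PC3). For every library 100000 cells were seeded and RNA was taken after 5 days. Each line is a selected and sorted population, and the replicates are labelled biological without a statement that they came from separate cultures, so the p-values cover only the spread between these libraries, which may be technical.

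Cells bind collagen type I through integrins with a beta1 chain, above all alpha2beta1 and alpha1beta1, and through the receptor kinase DDR1. Bound integrins assemble focal adhesions that anchor actin and myosin. The pool of free actin in turn sets the activity of the transcription factor SRF and its cofactor MRTF, which drive contractile genes through a promoter element called the CArG box. Tension and spreading also activate YAP and TAZ, whose targets include the matrix proteins CCN1 and CCN2. Collagen type I is the main protein of bone matrix, the tissue to which prostate cancer most often spreads.

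The libraries differed in ways that bear on every value below. The counts in genes were 6029679, 6309800 and 5529459 in the COL1-PC3SFRP2 libraries, against 8380405, 7446136 and 8272820 in the CCP-PC3SFRP2 libraries. Genes of the mitochondrial genome held 13.7, 16.8 and 7.17% of the counts in COL1-PC3SFRP2, against 20.8, 21.2 and 22.0% in CCP-PC3SFRP2. The third COL1-PC3SFRP2 library stood apart: over 10571 genes its log2 levels correlated with those of the first and the second at 0.885 and 0.833, while the first and second correlated at 0.981. A second column deposited under the name of this library, called the other column here, held different counts for 22431 of 60676 genes. It correlated at 0.829 and 0.888 with the first and second COL1-PC3SFRP2 libraries, at 0.552 with the third, and at 0.974 to 0.978 with the CCP-PC3SFRP2 libraries. No source used here says which of both columns is the third library, so results are also given without the third library and with the other column in its place.

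Fold changes followed the GC content of the transcripts. For each library the differences in log2 level from the CCP-PC3SFRP2 mean were taken over 10558 genes with a mean of at least 5 CPM (the counts of a gene relative to the size of its library, with sizes adjusted by the TMM method). The Spearman correlation of these differences with GC content was 0.857, 0.791 and 0.867 in the 3 COL1-PC3SFRP2 libraries, -0.386 in the other column and -0.117 to 0.178 in the CCP-PC3SFRP2 libraries. These are correlations across genes, which share their libraries and are not independent replicates. The COL1 fold change in the control PC3 cells correlated with GC content at 0.457. Counts were therefore also tested with a correction for GC content and transcript length in each library, called the GC correction here, after which the correlation in PC3SFRP2 cells was 0.026, against 0.873 before it. Since all 3 COL1-PC3SFRP2 libraries share the trend, a change in the cells and a bias of the libraries cannot be told apart.

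**Figure D1:**
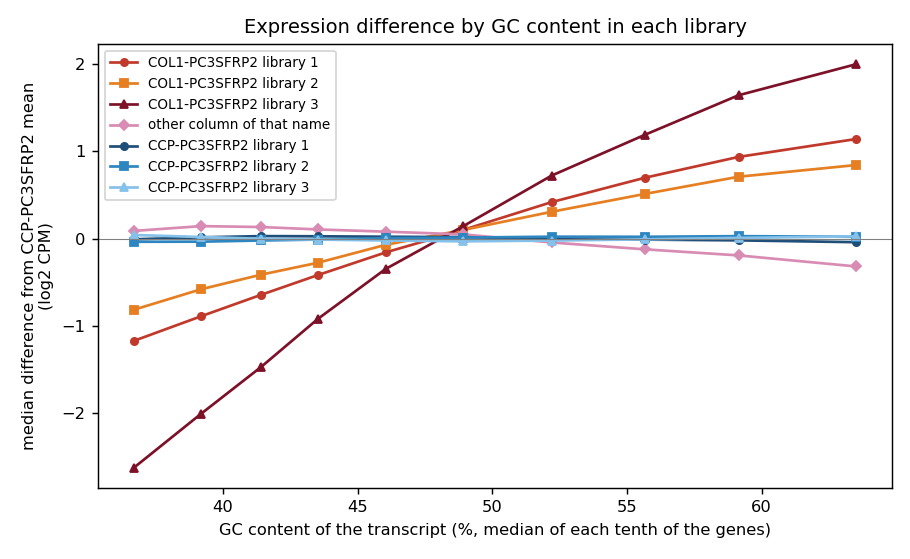
Median difference of each PC3SFRP2 library from the mean of the 3 CCP-PC3SFRP2 libraries (log2 CPM, vertical) against the median GC content of each of 10 bins of genes (percent, horizontal); each line is a library or the other column of that name. The 3 COL1-PC3SFRP2 libraries rise with GC content, the third most steeply, with -2.62 in the lowest bin and 2.0 in the highest, while the other column lies at 0.088 and -0.32 there.

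SFRP2 itself was high in all 6 libraries, at 15681, 10421 and 31131 CPM in COL1-PC3SFRP2 and 15990, 15060 and 18583 CPM in CCP-PC3SFRP2. The third COL1 library was the highest and the second the lowest, so the groups overlapped, and the log2 fold change was 0.21 (SE 0.36, edgeR adjusted p = 0.698). The control PC3 libraries had 10.7 to 27 CPM.

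In the test that used all 12 libraries (edgeR, a gene called at a Benjamini-Hochberg adjusted p under 0.05), 4057 genes were higher and 3608 lower on COL1 in PC3SFRP2 cells. These were 19.9% and 17.7% of the 20364 genes tested, or 37.6% in both directions, and the median log2 fold change over all genes tested was -0.038. Beyond a log2 fold change of 2, 342 genes were higher and 341 lower, together 3.35%. When genes were cut into 10 bins by GC content, the lowest bin (median 36.7%) had 0.284% called higher and 88.0% lower, and the highest (median 63.5%) had 92.1% called higher and 0.473% lower. Without the third COL1-PC3SFRP2 library 18.6% of the genes were called higher and 18.2% lower, and 275 genes lay beyond a log2 fold change of 2.

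With the GC correction 7.27% of the genes were called higher and 6.97% lower. Of the 7665 calls, 1683 were made again in the same direction and 150 in the opposite one. With the other column 4 genes were called (0.0196%), all higher, although 4064 (19.9%) had an unadjusted p under 0.05. With the other column and the GC correction together 1.96% were called higher and 1.36% lower. Calls in 1 direction were made for 251 genes under 4 settings alike: all libraries, the third library left out, the GC correction, and the GC correction applied to the other column. Of these 146 were higher and 105 lower, and their median GC content was 49.1%.

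ACTG2 and TAGLN, which encode contractile proteins of smooth muscle, were called higher under all of these settings. ACTG2, the smooth muscle gamma actin (ENSG00000163017, chromosome 2 from 73892314 to 73919865 of GRCh38), had 32.9, 28.3 and 9.98 CPM in COL1-PC3SFRP2, against 5.19, 4.63 and 6.11 CPM in CCP-PC3SFRP2. All COL1 libraries lay above all CCP libraries, as did the other column at 20.4 CPM, and the third COL1 library was the lowest of its group. Such a lack of overlap was common: in 25% of all genes tested the 3 COL1 libraries lay above the 3 CCP libraries, and in 25.7% below. Counting the other column too, the shares were 6.51% and 7.56%. The log2 fold change of ACTG2 was 2.16 (SE 0.37, adjusted p = 0.00091), 2.52 without the third library, 1.67 after the GC correction and 2.34 with the other column. TAGLN, which encodes the actin-binding protein transgelin (ENSG00000149591, chromosome 11 from 117199370 to 117207464), had 13.0, 10.9 and 5.39 CPM on COL1, against 2.48, 1.67 and 1.76 CPM on CCP. Here too the groups did not overlap and the third COL1 library was the lowest of its group, with 5.03 CPM in the other column. Its log2 fold change was 2.30 (SE 0.34, adjusted p = 0.000549), 2.58 without the third library, 1.62 after the GC correction and 2.26 with the other column. Among the genes named here, ACTG2 and TAGLN were the 2 called in the same direction under each of the 26 alternative settings. Their adjusted p ran from 1.8e-16 to 0.0239 and from 8.07e-09 to 0.0387. Both genes met a naming rule that asks for calls under several of these settings, so their calls there were fixed by the selection. The remaining settings largely reuse the same libraries and are not independent checks. For ACTG2 and TAGLN the PC3SFRP2 libraries held 36 to 208 and 13 to 82 counts, so the levels of TAGLN rest on few reads.

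MYL9 and KRT34, picked after their values were seen, completed the 4 genes called with the other column. MYL9, a regulatory light chain of myosin II (ENSG00000101335, chromosome 20 from 36541497 to 36551447), had 149, 131 and 81.5 CPM on COL1 and 57.6, 52.7 and 60.8 CPM on CCP, and 124 CPM in the other column. Each COL1 column lay above the CCP libraries, and the log2 fold change was 1.08 (SE 0.23, adjusted p = 0.00231) with all libraries and 1.24 with the other column. It was 0.094 with the GC correction, where the call was lost. KRT34, a hair keratin (ENSG00000131737, chromosome 17 from 41377669 to 41382306), had 8.69, 9.33 and 3.79 CPM on COL1 and 2.14, 1.93 and 2.7 CPM on CCP, with 8.07 CPM in the other column. The groups did not overlap and the third COL1 library was again the lowest of its group. The log2 fold change of KRT34 was 1.69 (SE 0.37, adjusted p = 0.00268), and 0.99 with the GC correction, where it was not called.

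**Figure D2:**
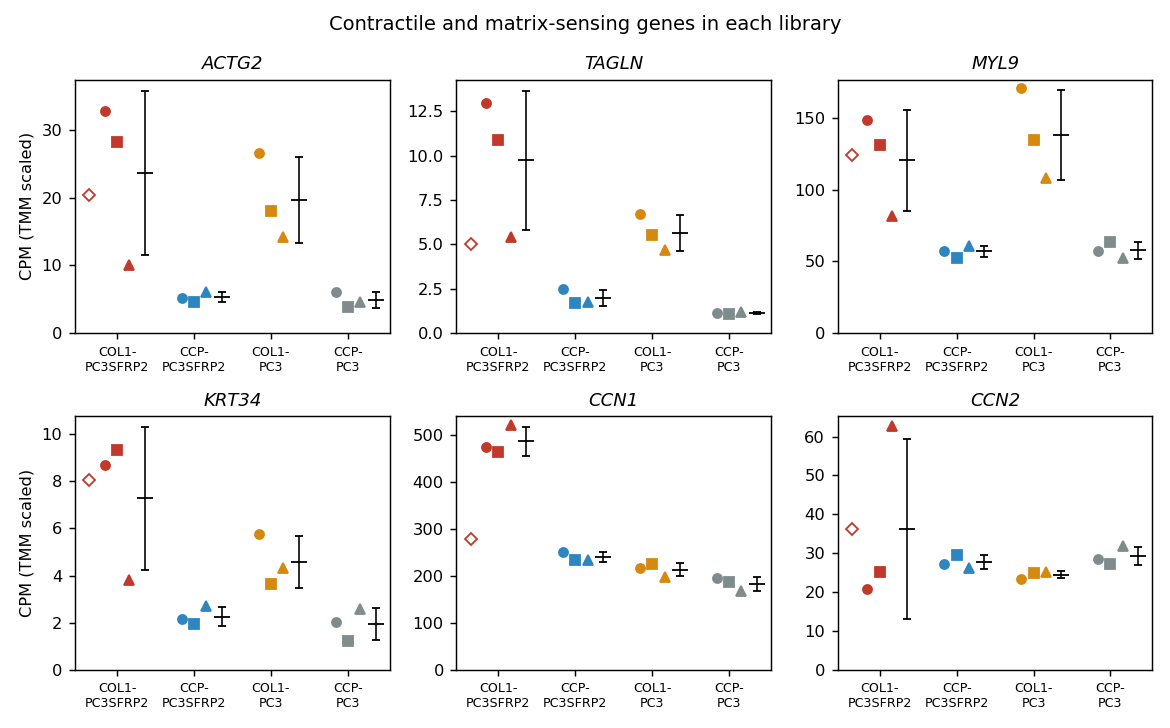
Level of 6 genes in each library (CPM after TMM scaling, vertical, linear from 0) in the 4 groups (horizontal); filled points are libraries 1 (circle), 2 (square) and 3 (triangle), the open diamond is the other column deposited for the third COL1-PC3SFRP2 library, and the black mark is the mean with 1 SD of 3 libraries. For ACTG2, TAGLN, MYL9 and KRT34 each COL1-PC3SFRP2 point lies above each CCP-PC3SFRP2 point, with the triangle of ACTG2 at 9.98 CPM, and the COL1-PC3 points lie above the CCP-PC3 points.

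Of the 22 tested members of the list of actomyosin genes and SRF targets, 12 rose and 1 fell, with a median log2 fold change of 1.01. These were 54.5% and 4.55%, against 19.9% called higher and 17.7% lower of all genes tested, the shares against which each list below is read. With the GC correction 4 rose and 2 fell with a median of 0.20, and with the other column 3 rose (ACTG2, TAGLN and MYL9) with a median of 0.44. With the other column and the GC correction together 4 rose and 0 fell, next to 1.96% and 1.36% of all genes. Counts in the lists below are read against the last 2 shares where both changes were made. Those with the GC correction alone are read against 7.27% of all genes called higher and 6.97% lower. The median GC content of the list was 55.1%, against 47.8% over all genes tested. ACTG1, the cytoplasmic gamma actin, had 4135, 3732 and 6198 CPM on COL1 and 1846, 1935 and 2159 CPM on CCP. Its 3 COL1 libraries were the highest of the 6, but the other column, at 1906 CPM, lay among the CCP libraries. The log2 fold change was 1.24 (SE 0.20, adjusted p = 0.000711), and 0.51, still called, with the GC correction. CNN2, a calponin of non-muscle cells, averaged 217 ± 55.5 CPM on COL1 and 91.0 ± 10.4 CPM on CCP (SD, n = 3 each) and rose by 1.25 on the log2 scale. PDLIM4, an adaptor of the actin cytoskeleton, averaged 16.1 ± 11.3 CPM on COL1 and 4.60 ± 0.755 CPM on CCP (SD, n = 3 each) and rose by 1.79. CNN2 and PDLIM4 lost the call with the GC correction, at 0.18 and 0.56. ACTG1 and CNN2 were picked after their values were seen. ACTA2, the smooth muscle alpha actin, was near the limit of detection, at 0.948, 0.612 and 1.20 CPM on COL1 and 0.226, 0.514 and 0.587 CPM on CCP, and was not called (log2 fold change 1.02, adjusted p = 0.248).

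Promoter sequences of RefSeq (GRCh38.p14, 250 bases before to 50 after the start of a gene) were searched for exact CArG boxes, in which CC and GG enclose 6 bases that are each A or T. The reverse complement of a box is again a box, so 1 search covers both strands, and 1.29% of 35116 promoters hold one. Of the 19 members of the actomyosin list with such a promoter, 5 hold a box in at least 1 promoter: ACTG1, ACTG2, CNN2, SRF and TPM4. The 1.29% is a share of promoters and the 5 of 19 a share of genes, so they are not of like kind. The list was also chosen to hold SRF targets, so these shares are not a test of the element. SRF was called higher with all libraries but not with the GC correction, and TPM4 was called in neither. TAGLN and MYL9 are not among the 5 with a box. The search covered 19 of the 23 list members, this window and exact boxes only, so it does not show that a gene lacks the element. Whether a box goes with a rise was not tested. The promoters of ACTG2, CNN2 and ACTG1 are shown to place the boxes, which are in capitals.
ACTG2, chr2:73892758-73893057, plus strand: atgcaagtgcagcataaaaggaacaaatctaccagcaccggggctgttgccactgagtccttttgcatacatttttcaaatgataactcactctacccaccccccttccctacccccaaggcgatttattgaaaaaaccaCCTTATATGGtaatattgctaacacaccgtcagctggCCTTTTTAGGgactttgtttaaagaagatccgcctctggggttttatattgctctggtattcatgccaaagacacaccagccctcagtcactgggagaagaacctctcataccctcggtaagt
CNN2, chr19:1026358-1026657, plus strand: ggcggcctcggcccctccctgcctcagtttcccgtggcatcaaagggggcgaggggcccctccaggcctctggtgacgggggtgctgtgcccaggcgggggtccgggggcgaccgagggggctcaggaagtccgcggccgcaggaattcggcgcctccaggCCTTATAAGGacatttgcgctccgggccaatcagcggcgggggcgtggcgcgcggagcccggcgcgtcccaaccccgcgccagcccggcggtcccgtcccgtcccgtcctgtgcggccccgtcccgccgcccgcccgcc
ACTG1, chr17:81512750-81513049, minus strand: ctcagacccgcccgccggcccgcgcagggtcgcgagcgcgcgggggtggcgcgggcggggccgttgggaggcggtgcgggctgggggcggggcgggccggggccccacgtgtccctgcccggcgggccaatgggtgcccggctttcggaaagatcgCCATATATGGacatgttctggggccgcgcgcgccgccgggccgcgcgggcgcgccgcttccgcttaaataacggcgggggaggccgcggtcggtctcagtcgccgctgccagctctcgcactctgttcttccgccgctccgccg
Counted from the start site, the boxes of ACTG2 begin at -110 and -73, that of CNN2 at -89 and that of ACTG1 at -94. A match describes the letters only, and binding of SRF was not measured.

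Among targets of YAP and TAZ, CCN1 was higher on COL1, and CCN2 was not called with all libraries. CCN1, a secreted matrix protein (ENSG00000142871, chromosome 1 from 85580761 to 85584589), had 474, 465 and 522 CPM in COL1-PC3SFRP2, against 251, 235 and 234 CPM in CCP-PC3SFRP2. Each COL1 library lay above each CCP library, and the other column, at 279 CPM, was nearer to CCP but still above it. The log2 fold change was 1.02 (SE 0.15, adjusted p = 0.000573), 0.97 without the third library, 0.74 after the GC correction and 0.55 with the other column and the GC correction, all called, but 0.75 and not called with the other column alone. CCN2 had 20.9, 25.1 and 62.7 CPM on COL1 and 27.3, 29.6 and 26.2 CPM on CCP. Of the COL1 libraries the third alone exceeded the CCP range, as did the other column at 36.3 CPM, and the log2 fold change was 0.38 (SE 0.31, adjusted p = 0.361). It was -0.047 with the GC correction, and without the third library as well it was -0.58 and called lower (adjusted p = 0.00164). Of the 21 tested members of the YAP and TAZ list 4 rose and 4 fell, 19.0% each way and near the shares of all genes, with a median of -0.062. After the GC correction 3 rose and 5 fell, and with the other column as well 3 rose and 0 fell. ARHGEF17, which encodes a guanine nucleotide exchange factor, rose by 1.87, and RBMS3, which encodes an RNA-binding protein, fell by 1.95 on the log2 scale. Under the GC correction they stood at 0.58 and -0.61, and neither was called.

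The receptors that bind collagen did not move together. ITGA2, the alpha2 chain, had 143, 176 and 99.8 CPM on COL1 and 267, 257 and 256 CPM on CCP. Every COL1 library was lower, the other column at 158 CPM among them, and the log2 fold change was -0.89 (SE 0.20, adjusted p = 0.00377). The transcript has a GC content of 40.1%, and after the GC correction the value was 0.091 and not called. ITGA1 and ITGB1, the alpha1 and beta1 chains, fell by 1.25 and 0.99 and lost the call too, at -0.18 and -0.053. DDR1, the collagen receptor kinase, had 59.1, 42.7 and 161 CPM on COL1 and 29.9, 26.9 and 30.7 CPM on CCP. Its 3 COL1 libraries lay above CCP, the third far above the rest, while the other column, at 18.5 CPM, lay below each CCP library. The log2 fold change was 1.58 (SE 0.35, adjusted p = 0.00337), 0.80 without the third library and 0.24, not called, with the GC correction. In all, 1 of 9 tested collagen receptors rose and 3 fell, with a median of 0.32, and of 0.091 with the GC correction, where 0 rose and 0 fell. None was called with the other column as well.

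Among the other integrin subunits 6 of 13 rose and 4 fell (46.2% and 30.8%), but after the GC correction 0 rose and 0 fell, and with the other column as well 0 rose and 3 fell. ITGB2, the beta chain of leukocyte integrins, had 28.4, 30.7 and 144 CPM on COL1 and 14.4, 17.6 and 18.1 CPM on CCP, and 14.0 CPM in the other column. The third COL1 library stood far above the rest, and the log2 fold change was 2.01 (SE 0.46, adjusted p = 0.00398), 0.82 without the third library and 0.74, not called, with the GC correction. ITGB5, a beta chain of vitronectin receptors, rose by 1.06, and stood at 0.40 and uncalled with the GC correction. ITGB6, an epithelial beta chain that binds latent TGF-beta, had 1.74, 3.06 and 5.99 CPM on COL1 and 10.6, 15.7 and 10.2 CPM on CCP. It was lower in each COL1 library and in the other column, at 6.62 CPM. It fell by 1.79 (SE 0.37, adjusted p = 0.00201) and stood at -0.78, not called, with the GC correction and at -1.31, called, with the other column and the GC correction.

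Focal adhesion genes were mostly higher: 15 of 25 rose and 3 fell, with a median of 0.98. With the GC correction 5 rose and 3 fell and the median was 0.15, in a list with a median GC content of 55.5%. Adding the other column, 2 rose and 1 fell. ZYX, which encodes zyxin, had 394, 340.2 and 1555 CPM on COL1 and 163, 187 and 201 CPM on CCP. The third COL1 library was far above the others, and the other column, at 130.3 CPM, lay below each CCP library. The log2 fold change was 2.05 (SE 0.43, adjusted p = 0.00269), 1.00 without the third library and 0.51, not called, with the GC correction. TGFB1I1, which encodes the paxillin-like adaptor HIC-5, averaged 87.6 ± 36.2 CPM on COL1 and 26.9 ± 4.17 CPM on CCP (SD, n = 3 each) and rose by 1.70, against 0.31 and no call with the GC correction.

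**Figure D3:**
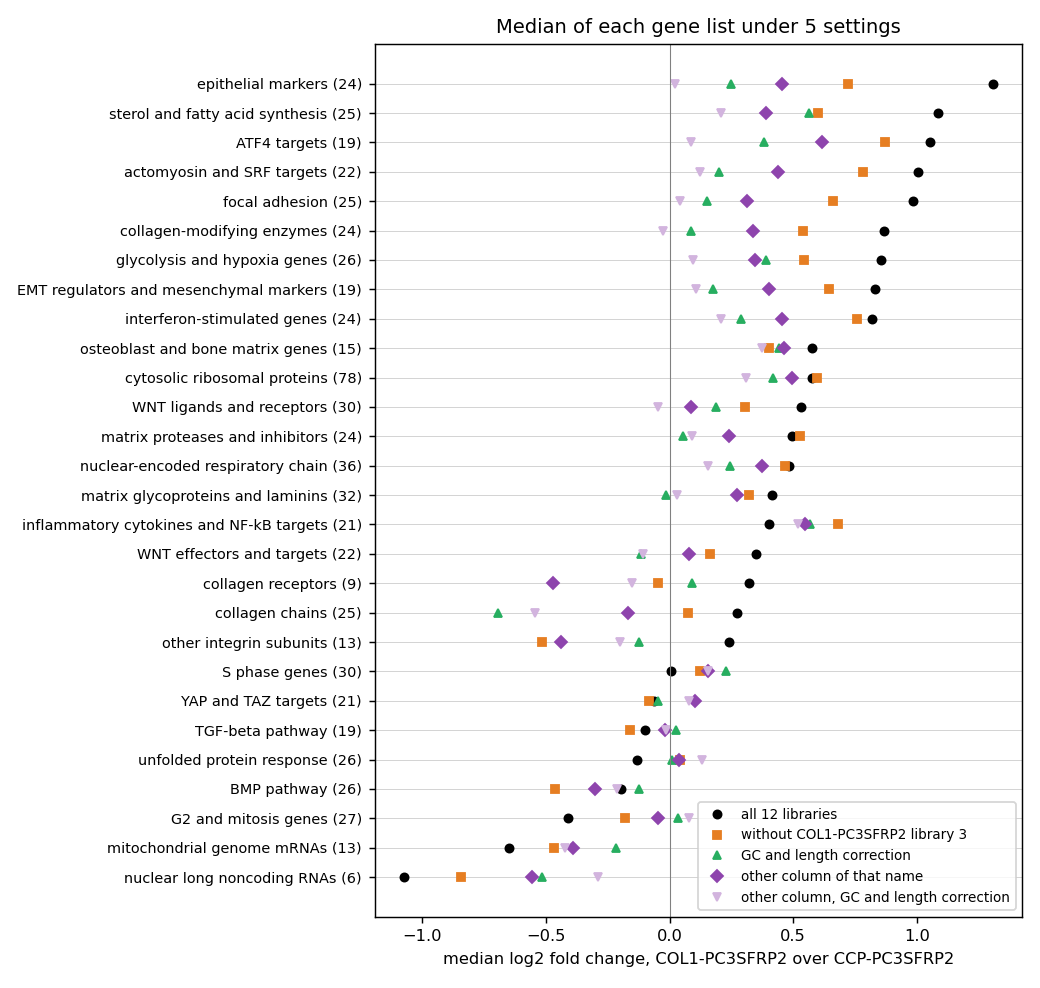
Median log2 fold change of COL1-PC3SFRP2 over CCP-PC3SFRP2 (horizontal) for each gene list (vertical, with the number of tested members in brackets), as a point for each of 5 settings. The medians with all 12 libraries span -1.07 to 1.31, while those with the other column and the GC correction lie between -0.55 and 0.52.

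Of 25 tested collagen chains 4 rose and 4 fell, 16% each way and near the 19.9% and 17.7% of all genes, with a median of 0.27. After the GC correction 0 rose and 9 fell with a median of -0.70, and with the other column as well 0 rose and 3 fell. COL4A5, a chain of basement membrane collagen, had 15.3, 14.2 and 12 CPM on COL1 and 52.3, 59.0 and 59.6 CPM on CCP. The 3 COL1 libraries were alike and below CCP, while the other column had 61.4 CPM, above each CCP library. Its log2 fold change was -2.04 (SE 0.26, adjusted p = 0.000476), -2.27 with the GC correction, and -0.91, not called, with the other column. COL4A1, another chain of that network, picked after its values were seen, fell by 1.01, and by 1.63 with the GC correction, and was not called with the other column at -0.49. COL6A2, a chain of microfibrillar collagen, had 203, 154 and 543 CPM on COL1 and 97.1, 90.6 and 94.0 CPM on CCP. Its COL1 libraries were above CCP, and the other column, at 71.2 CPM, below. It rose by 1.67 (SE 0.33, adjusted p = 0.00182), with 0.93 without the third library and 0.12, not called, with the GC correction.

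Of 24 enzymes that modify collagen 10 rose and 1 fell, and with the GC correction 3 rose and 1 fell. In the test with the other column as well 0 rose and 1 fell. PLOD1, a lysyl hydroxylase, averaged 131 ± 65.2 CPM on COL1 and 42.7 ± 2.44 CPM on CCP (SD, n = 3 each). It rose by 1.61 (SE 0.27, adjusted p = 0.000873), and by 0.51, still called, with the GC correction, but the other column had 40.0 CPM, below each CCP library. Among 32 matrix glycoproteins and laminins 10 rose and 0 fell (31.2% and 0%). The balance turned after the GC correction, when 1 rose and 3 fell, and with the other column as well 2 rose and 2 fell. FBLN1, which encodes the matrix protein fibulin-1, had 25.4, 26.6 and 99.6 CPM on COL1 and 17.5, 15.8 and 15.0 CPM on CCP, and rose by 1.64, or by 0.69 without the third library, with 0.63 and no call with the GC correction. FBLN2, its relative, had at most 2 counts in a PC3SFRP2 library and was not called.

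Of 24 matrix proteases and their inhibitors 7 rose and 3 fell (29.2% and 12.5%), but after the GC correction 1 rose and 2 fell, and with the other column as well 0 rose and 1 fell. MMP14, the membrane-bound protease that cuts collagen type I, averaged 69.8 ± 14.0 CPM on COL1 and 37.9 ± 1.78 CPM on CCP (SD, n = 3 each). It rose by 0.88, with -0.14 and no call after the GC correction. MMP17, another membrane-type metalloprotease, rose by 2.09 and MMP1, the interstitial collagenase, fell by 1.32. Neither was called with the GC correction, at 0.45 and -0.82.

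SPARC and COL2A1 rested on the third library. SPARC, a collagen-binding protein of bone matrix, had 0, 2 and 24 counts in COL1-PC3SFRP2, against 1, 0 and 0 counts in CCP-PC3SFRP2 and 0 in the other column. It was called higher (adjusted p = 0.0241), and without the third library it was not. COL2A1, the collagen of cartilage, had 3.16, 2.91 and 136 CPM on COL1 and 2.60, 3.73 and 1.88 CPM on CCP. The 680 counts of the third library stood alone, with 10 to 29 counts in the other PC3SFRP2 columns. The fold change on the log2 scale was 4.09 with it and 0.16 without it. The control cells had 37.2, 31.3 and 24.0 CPM of COL2A1 in COL1-PC3 and 47.2, 74.6 and 59.3 CPM in CCP-PC3.

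Of 24 tested epithelial genes 14 rose and 4 fell with a median of 1.31, and 5 rose and 1 fell with a median of 0.25 after the GC correction, and with the other column as well 2 rose and 0 fell. CDH1, which encodes E-cadherin, had 130.2, 133 and 177 CPM on COL1 and 149, 140.4 and 151 CPM on CCP. The groups overlapped and it was not called (log2 fold change -0.0024, SE 0.17, adjusted p = 0.992). KRT8, a keratin of simple epithelia, picked after its values were seen, had 629, 494 and 991 CPM on COL1 and 217, 224 and 216 CPM on CCP. All COL1 libraries and the other column, at 246 CPM, lay above CCP. On the log2 scale the change was 1.69 (SE 0.23, adjusted p = 0.000495), with 0.54 with the GC correction and 0.43 with the other column and the GC correction, both called. CLDN3, a claudin of tight junctions, had 26.9, 25.7 and 115 CPM on COL1 and 8.58, 8.87 and 8.57 CPM on CCP, and 4.5 CPM in the other column, below each CCP library. It rose by 2.67, or by 1.60 without the third library and 0.89, called, with the GC correction. CRB3, a polarity protein of the apical membrane, rose by 2.50, and by 1.11 with the GC correction.

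Of 19 tested regulators and markers of the mesenchymal state 6 rose and 1 fell, and 2 rose and 1 fell with the GC correction, and with the other column as well 1 rose and 0 fell. VIM, which encodes vimentin, had 165, 169.7 and 101 CPM on COL1 and 132, 139 and 146 CPM on CCP. COL1 library 3 lay below CCP and the others above, and it was not called (log2 fold change 0.065, adjusted p = 0.826). The value was -0.54, not called, with the GC correction, and without the third library as well it was -0.25 and called lower (adjusted p = 0.041). LGALS1, which encodes the lectin galectin-1, had 1262, 1021 and 2981 CPM on COL1 and 461, 536 and 492 CPM on CCP, and 491 CPM in the other column, within the CCP range. It rose by 1.82 (SE 0.31, adjusted p = 0.00101), and by 0.71 with the GC correction. TGFB1, the growth factor, rose by 1.57 and LRP1, an endocytic receptor, by 1.53. Neither was called with the GC correction, at 0.17 and 0.28. THY1 and PDGFRB, surface markers of fibroblasts and mural cells, had at most 5 and 4 counts in a PC3SFRP2 library and were not called.

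The list of osteoblast and bone matrix genes has 25 members, and 8 of them had 0 counts in all PC3SFRP2 libraries. Of the 15 tested 5 rose and 1 fell, and with the GC correction 4 rose and 1 fell, next to 7.27% and 6.97% of all genes. When the other column was used as well, 0 rose and 0 fell. ATF4, a transcription factor of osteoblasts and of the stress response, had 233, 226 and 257 CPM on COL1 and 114, 126 and 104 CPM on CCP. The COL1 libraries were near each other and above CCP, while the other column, at 107 CPM, was within the CCP range. The fold change on the log2 scale was 1.06 (SE 0.16, adjusted p = 0.00064), and 0.44, called, with the GC correction. BMP4, a bone-inducing ligand, averaged 31.1 ± 1.59 CPM on COL1 and 20.8 ± 2.81 CPM on CCP (SD, n = 3 each), a rise of 0.58 that was -0.051 and not called with the GC correction. BMPR2, a receptor for BMP ligands, had 35.1, 43.7 and 16.4 CPM on COL1 and 93.5, 83.7 and 94.0 CPM on CCP, and fell by 1.5, and by 0.46 with the GC correction. ID1, a target of BMP signalling, rose by 1.46, and by 0.37 with the GC correction. In the BMP list 5 of 26 rose (19.2%, near the 19.9% of all genes) and 7 fell (26.9%). In the TGF-beta list 6 of 19 rose and 4 fell (31.6% and 21.1%). After the GC correction 1 rose and 3 fell in the BMP list, and 1 rose and 3 fell in the TGF-beta list, where the balance turned. Once the other column was added, 0 rose and 1 fell in the BMP list and 1 rose and 2 fell in the TGF-beta list.

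Among WNT ligands and receptors 6 of 30 rose and 3 fell (20% and 10%), and among WNT effectors and targets 5 of 22 rose and 3 fell (22.7% and 13.6%). The shares that rose were near the 19.9% of all genes. After the GC correction 1 rose and 5 fell among ligands and receptors, the opposite balance, and 1 rose and 1 fell among effectors and targets. With the other column as well 0 ligands and receptors rose and 0 fell, and 0 effectors and targets rose and 2 fell. WNT5A, a ligand that mostly signals without beta-catenin, had 10.4, 11.3 and 5.19 CPM on COL1 and 23.1, 25.2 and 22.7 CPM on CCP. Each COL1 library was below CCP, and the other column, at 22.2 CPM, was just below it. WNT5A fell by 1.38 (SE 0.25, adjusted p = 0.00105), and by 0.60, still called, with the GC correction. WNT10B, a ligand that promotes bone formation, averaged 3.39 ± 0.501 CPM on COL1 and 1.41 ± 0.575 CPM on CCP (SD, n = 3 each; log2 fold change 1.25, edgeR adjusted p = 0.0485) and lost the call with the GC correction at 0.23. WNT4 exceeded the CCP range in COL1 library 3 alone and was not called (log2 fold change 1.78, adjusted p = 0.0635). CTNNB1, which encodes beta-catenin, had 139, 171 and 165 CPM on COL1 and 145, 144 and 145 CPM on CCP. The groups overlapped and it was not called (log2 fold change 0.13, adjusted p = 0.551), but with the GC correction it was called higher at 0.56. IGFBP2, a binding protein of insulin-like growth factors, averaged 5.00 ± 2.61 CPM on COL1 and 1.41 ± 0.445 CPM on CCP (SD, n = 3 each) and rose by 1.78, a call lost with the GC correction at 0.21.

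Of 26 genes of the unfolded protein response 7 rose and 9 fell (26.9% and 34.6%, against 19.9% and 17.7% of all genes). After the GC correction 2 rose and 2 fell, and with the other column as well 2 rose and 1 fell. HSPA5, the chaperone BiP, had 1413, 1458 and 537 CPM on COL1 and 1454, 1202 and 1313 CPM on CCP. COL1 library 3 was the lowest of the 6, and the gene was not called (log2 fold change -0.22, adjusted p = 0.569). It was called higher with the GC correction when the third library was left out (0.26, adjusted p = 0.0197) or replaced by the other column (0.38, adjusted p = 0.0348). SDF2L1, a partner of endoplasmic reticulum chaperones, had 51.0, 42.8 and 75.5 CPM on COL1, against 16.1, 17.9 and 16.3 CPM on CCP. All COL1 libraries and the other column, at 28.2 CPM, were above CCP. It rose by 1.75 (SE 0.22, adjusted p = 0.000476), and with the GC correction the value was 0.30 and not called. PDIA4, a disulfide isomerase, had 881, 718 and 583 CPM on COL1 and 539.7, 499 and 518 CPM on CCP, and rose by 0.49, a call lost with the GC correction at 0.10. EIF2AK3, the stress sensor PERK, had 6.32, 7.80 and 2.99 CPM on COL1 and 17.3, 17.1 and 18.4 CPM on CCP. The COL1 libraries were all lower, and it fell by 1.60 (SE 0.28, adjusted p = 0.000896), and by 1.13, called, with the GC correction.

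Of 19 tested targets of ATF4 9 rose and 2 fell with a median of 1.05, and 4 rose and 2 fell with the GC correction, and with the other column as well 2 rose and 0 fell. SESN2, a stress-induced inhibitor of mTORC1 signalling, had 7.11, 7.80 and 7.79 CPM on COL1 and 2.14, 1.67 and 2.11 CPM on CCP. Its COL1 libraries were close together, and the other column, at 3.44 CPM, was also above CCP. SESN2 rose by 1.92 (SE 0.29, adjusted p = 0.000576), with 0.91 and no call with the GC correction and 1.10 and a call with the other column and the GC correction. TRIB3, a pseudokinase, had 190.2, 169 and 454 CPM on COL1 and 72.0, 74.3 and 73.9 CPM on CCP, and 85.5 CPM in the other column. All COL1 columns were above CCP, the third library most. TRIB3 rose by 1.88, by 0.57 with the GC correction and by 0.39 with the other column and the GC correction, called in each.

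Genes for cytosolic ribosomal proteins, the structural parts of the ribosome, were mostly higher: 42 of 78 rose and 5 fell with a median of 0.58. With the GC correction 39 rose and 4 fell (median 0.42), and with the other column and the GC correction 23 rose and 0 fell (median 0.31). In 39 of them all 4 COL1 columns, the other column included, lay above all 3 CCP-PC3SFRP2 libraries, compared with 6.51% of all genes tested. The median GC content of the list was 47.9%, next to 47.8% over all genes. RPS16, of the small subunit, picked after its values were seen, had 1874, 1663 and 3063 CPM on COL1 and 666, 746 and 665 CPM on CCP, with 1018 CPM in the other column. Each COL1 column was above CCP. It rose by 1.67 (SE 0.22, adjusted p = 0.000481), by 1.03 with the GC correction and by 0.69 with the other column and the GC correction. RPL13A, of the large subunit, rose by 1.91, and by 1.17 with the GC correction. Many ribosomal protein genes have processed pseudogenes, so their reads may have been split between near-identical copies.

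Messenger RNAs of the mitochondrial genome, which encode respiratory chain subunits, were lower. Of 13, 0 rose and 8 fell with a median of -0.65. After the GC correction 4 fell, and with the other column and the GC correction 6 fell. MT-ND6, a complex I subunit, had 713, 652 and 214 CPM on COL1 and 1371, 1361 and 1423 CPM on CCP, and 1038 CPM in the other column. COL1 library 3 was the lowest and all COL1 columns lay below CCP. It fell by 1.40 (SE 0.30, adjusted p = 0.00303), and by 0.92 with the GC correction. MT-ND5, another complex I subunit, encoded on the opposite strand beside it, fell by 1.02, and by 0.76 with the GC correction. How strand entered the counting is not given in the sources used here, so reads of MT-ND5 and MT-ND6 may be mixed.

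Of 36 nuclear-encoded respiratory chain genes 18 rose and 6 fell, and 9 rose and 2 fell with the GC correction, and with the other column as well 4 rose and 0 fell. SDHD, a complex II subunit, had 35.1, 46.0 and 7.99 CPM on COL1 and 135, 137 and 141 CPM on CCP. The COL1 libraries were all lower, the third most, while the other column, at 162 CPM, lay above CCP. SDHD fell by 2.20, and by 1.44 with the GC correction.

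Of 25 genes of sterol and fatty acid synthesis 18 rose and 4 fell. Under the GC correction 17 rose and 1 fell with a median of 0.56, and with the other column and the GC correction 2 rose and 0 fell. SCD and INSIG1 were picked after their values were seen. SCD, the stearoyl-CoA desaturase, had 220.4, 229 and 495 CPM on COL1 and 134, 166 and 143 CPM on CCP, and rose by 1.09, and by 1.34 with the GC correction. INSIG1, a sterol-regulated brake on this pathway, had 28.9, 24.3 and 58.3 CPM on COL1 and 20.2, 21.5 and 19.9 CPM on CCP. It rose by 0.85, and by 1.30 with the GC correction, but was not called without the third library at 0.38. Of 26 glycolysis and hypoxia genes 17 rose and 1 fell, and 5 rose and 0 fell with the GC correction, and with the other column as well 0 rose and 0 fell.

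Cell cycle genes were divided. Of 30 S phase genes 12 rose and 8 fell (40% and 26.7%, against 19.9% and 17.7% of all genes). After the GC correction 8 rose and 2 fell, next to 7.27% and 6.97% of all genes, and with the other column as well 4 and 0. Of 27 genes of G2 and mitosis 4 rose (14.8%, against 19.9% of all genes) and 12 fell (44.4%, against 17.7%). After the GC correction 3 rose and 3 fell, next to 7.27% and 6.97% of all genes, and with the other column as well 0 and 0. PCLAF, a partner of the replication clamp, had 4.90, 6.42 and 4.59 CPM on COL1, against 47.5, 64.9 and 77.8 CPM on CCP. The 3 COL1 libraries were alike and far below CCP, while the other column, at 71.3 CPM, was within the CCP range. The fold change on the log2 scale was -3.57 (SE 0.33, adjusted p = 0.000136), and -2.81 with the GC correction. It was -1.32 in a second alignment that the authors also deposited, used for all groups but without the third COL1-PC3SFRP2 library. CDT1, a licensing factor of replication, had 56.3, 53.4 and 105 CPM on COL1 and 12.4, 18.0 and 19.4 CPM on CCP, and rose by 2.11, and by 0.74 with the GC correction. UHRF1, which helps to maintain DNA methylation through replication, rose by 1.91, and by 1.10 with the GC correction. CENPE, a kinetochore motor, fell by 1.99 and PLK1, a mitotic kinase, rose by 1.66. Their transcripts have GC contents of 35.1% and 57.1%, and with the GC correction CENPE was not called at -0.58 while PLK1 was at 0.65.

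Of 21 inflammatory genes 7 rose and 0 fell, with 4 rising after the GC correction and 5 with the other column and the GC correction. LCN2, the iron-carrier-binding protein lipocalin-2, picked after its values were seen, had 696, 582 and 674 CPM on COL1 and 234, 231 and 266 CPM on CCP, and 382 CPM in the other column. The COL1 columns were all above CCP. On the log2 scale the change was 1.42 (SE 0.20, adjusted p = 0.000535), 0.57 with the GC correction and 0.64 with the other column and the GC correction, all called. ICAM1, an adhesion molecule induced through NF-kB, had 12.8, 11.9 and 39.1 CPM on COL1 and 7.22, 6.17 and 4.82 CPM on CCP, and rose by 1.79, and by 0.91 with the GC correction. Of 24 interferon-stimulated genes 14 rose and 1 fell, and 2 rose and 0 fell with the GC correction, and with the other column as well 0 rose and 0 fell. ISG15, a ubiquitin-like modifier, had 199, 215 and 394 CPM on COL1 and 60.1, 48.9 and 38.9 CPM on CCP. The COL1 libraries were all above CCP, and the other column, at 51.6 CPM, was within the CCP range. It rose by 2.45 (SE 0.25, adjusted p = 0.000197), and by 1.03 with the GC correction.

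Nuclear noncoding RNAs were lower, with 4 of 6 falling, and 1 after the GC correction, and 0 with the other column as well. NEAT1, the scaffold of paraspeckles, had 37.0, 37.6 and 6.79 CPM on COL1 and 112, 73.7 and 117 CPM on CCP, and fell by 1.88, and MALAT1, an RNA of nuclear speckles, fell by 1.42. Neither was called with the GC correction, at -1.47 and -0.80. Away from the lists, MAN1A1 and BHLHE41 were picked after their values were seen. MAN1A1, a mannosidase of the Golgi, had 11.9, 15.4 and 6.39 CPM on COL1 and 46.1, 48.1 and 51.9 CPM on CCP, with 27 CPM in the other column. All COL1 columns were below CCP. It fell by 2.10 (SE 0.25, adjusted p = 0.000448), by 1.46 with the GC correction and by 1.16 with the other column and the GC correction. BHLHE41, a transcriptional repressor tied to the circadian clock, had 59.1, 62.4 and 85 CPM on COL1 and 147, 133 and 146 CPM on CCP, with 94.3 CPM in the other column. It fell by 1.05 (SE 0.17, adjusted p = 0.000822), and by 1.14 with the GC correction.

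**Figure D4:**
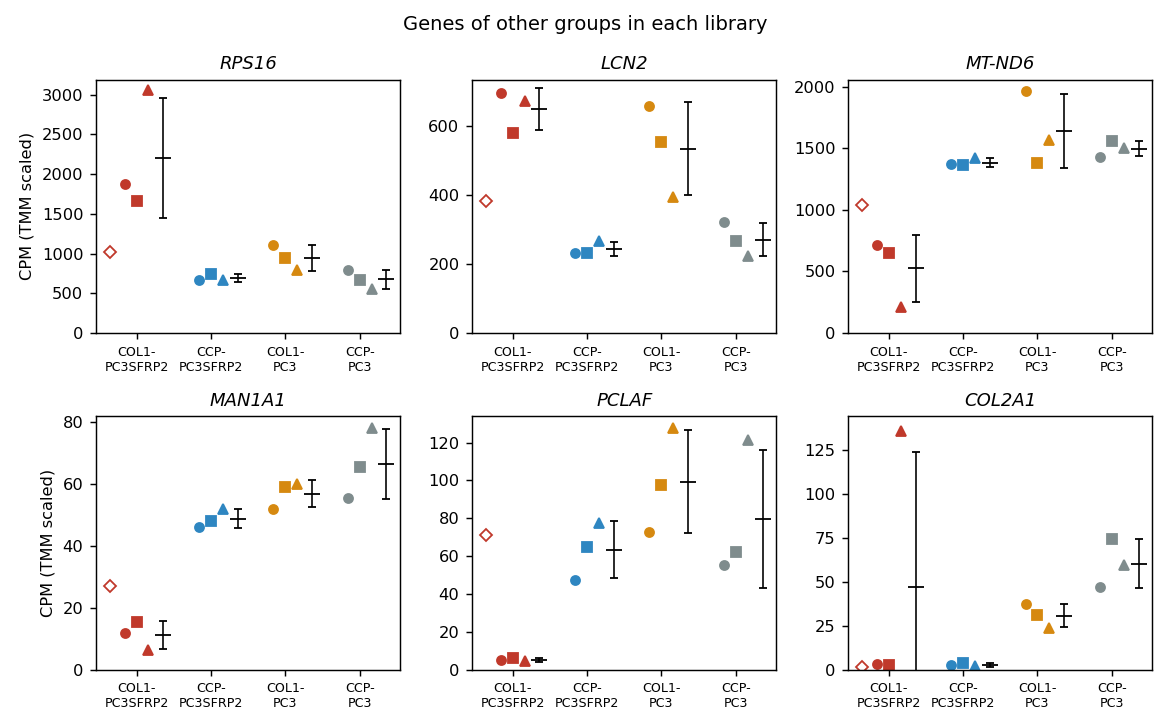
Level of 6 genes of other groups in each library (CPM after TMM scaling, vertical, linear from 0) in the 4 groups (horizontal); filled points are libraries 1 (circle), 2 (square) and 3 (triangle), the open diamond is the other column, and the black mark is the mean with 1 SD of 3 libraries. COL2A1 is high in PC3SFRP2 cells in the third COL1 library alone, at 136 CPM, and the open diamond of PCLAF, at 71.3 CPM, lies among the CCP-PC3SFRP2 libraries.

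Markers of the line and of other cell types were summed in CPM over the genes tested, so markers with fewer than 10 counts in all were left out. The 6 epithelial markers of PC3 cells summed to 4656, 4276 and 7592 CPM on COL1 and 2600, 2611 and 2639 CPM on CCP. The leukocyte markers, 3 tested of 10, summed to 0.474, 1.07 and 0.799 CPM on COL1 and 0.677, 0.129 and 0.705 CPM on CCP. The fibroblast markers, 6 tested of 9, summed to 17.9, 9.94 and 14.6 CPM on COL1 and 10.8, 8.87 and 13.0 CPM on CCP. Of the 9, 2 had 0 counts in all 6 libraries. The chondrocyte markers, 2 tested of 7, summed to 131, 113 and 682 CPM on COL1 and 129, 140.4 and 137 CPM on CCP, so the third COL1 library was the highest. For the neural markers, 4 tested of 6, the sums were 152, 182 and 407 CPM on COL1 and 235, 245 and 223 CPM on CCP. The third COL1 library lay above and the others below CCP. For the markers of androgen-responsive prostate cells, 3 tested of 7, the sums were 30.5, 39.4 and 65.3 CPM on COL1 and 70.1, 65.4 and 67.3 CPM on CCP, lower in each COL1 library. The sums of the endothelial markers, 5 tested of 7, were 13.3, 11.3 and 28.9 CPM on COL1 and 14.7, 13.8 and 12.3 CPM on CCP. Those of the skeletal muscle markers, 3 tested of 7, were 11.2, 11.3 and 20.0 CPM on COL1 and 6.21, 5.14 and 8.10 CPM on CCP. The third COL1 library was the highest in both. The part of other cells or of a mix-up of libraries in these values was not tested.

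The COL1 effect of PC3SFRP2 cells was set against that of the control cells. In PC3 cells edgeR called 0 genes between COL1-PC3 and CCP-PC3, and DESeq2 called 6. An unadjusted edgeR p under 0.05 was found for 790 genes, or 3.88% of those tested. ACTG2 had 26.6, 18.0 and 14.2 CPM in COL1-PC3 and 6.12, 3.90 and 4.53 CPM in CCP-PC3. Its log2 fold change was 1.99, next to 2.16 in PC3SFRP2 cells, and the difference of both effects was 0.17 (SE 0.52, adjusted p = 0.858). TAGLN had 6.69, 5.53 and 4.66 CPM in COL1-PC3 and 1.12, 1.07 and 1.17 CPM in CCP-PC3, and its effects differed by 0.0018 (SE 0.51, adjusted p = 0.999). For MYL9 and KRT34 the difference was -0.18 and 0.48, with SE 0.32 and 0.53, and neither was called. The COL1-PC3 libraries lay above the CCP-PC3 libraries for each of these 4 genes. A p-value above the threshold does not show that the effects are alike.

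The test of the difference between both COL1 effects called 1287 genes, or 6.32% of those tested. It called 515 with the GC correction and 0 by edgeR with the other column, where 1296 (6.35%) had an unadjusted p under 0.05. CCN1 had 216, 225 and 198 CPM in COL1-PC3 and 195, 187 and 167 CPM in CCP-PC3, and its effect was larger in PC3SFRP2 cells by 0.80 on the log2 scale (SE 0.21, adjusted p = 0.0432). MAN1A1 had 51.7, 58.9 and 59.7 CPM in COL1-PC3 and 55.5, 65.4 and 78.1 CPM in CCP-PC3, a difference of -1.88 (SE 0.35, adjusted p = 0.0265). The count of differing effects depended on single libraries. It was 2 when the first or second CCP-PC3 library, CCP-PC3SFRP2 library 2 or 3, or COL1-PC3 library 2 or 3 was left out. Under those omissions 4682 to 5172 genes (23.4 to 25.9%) had an unadjusted edgeR p under 0.05, against 6189 (30.4%) with all libraries. The count called was 7 without the first CCP-PC3SFRP2 library and 92 without the third CCP-PC3 library. It was 4050 without the third COL1-PC3SFRP2 library and 5515 without the second.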

How the data were processed

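RNA of PC3SFRP2 and PC3 cells on COL1-coated and uncoated flasks was sequenced from libraries made with the SENSE mRNA-Seq kit. The authors aligned the reads to GRCh38 with STAR and deposited whole-number counts per gene, without normalization, for 60676 gene IDs, of which 60357 matched a symbol. A sheet of triplicates was used, together with 1 column of another sheet (the other column) and a sheet of a second alignment. The 56 other columns of per-sample values were not used.

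Genes with at least 10 counts in all were tested with the quasi-likelihood test of edgeR 4.0.16 (R 4.3.3, robust, TMM scaling) in a single fit of the 4 groups without covariates, with Benjamini-Hochberg adjustment over all genes tested. Standard errors (SE) are Wald errors of the fitted contrast. The GC correction removed from each library a lowess trend (span 0.2) on GC content and then length of GENCODE transcripts and entered the fit as offsets. Alternatives were DESeq2 1.42.0, limma 3.58.1 voom, upper-quartile scaling, other filters, the 6 PC3SFRP2 libraries alone, a replicate block, the second alignment, and each library left out. The other column with the replicate block was added after the data were seen. On simulated data for the COL1 comparison in PC3SFRP2 cells (19757 genes) the test recovered 43% of genes changed by a log2 fold change of 1 and 99% of those changed by 2. Only 100 genes were changed by each amount and no GC trend was simulated, unlike in these data. The shares therefore do not give the recovery in the real comparison.

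The gene lists and the genes named were chosen with earlier results of these data known. Named were up to 3 members per list with the largest called change and at least 5 CPM in the higher group. A second rule named genes at that level called in the same direction under several settings. These were all libraries, the third COL1-PC3SFRP2 library left out, the GC correction, and the other column. Also named were 30 genes that the study or the question singles out. Others are marked as picked after their values were seen. Of the 84 genes that the list rule names, 47 are described, and the others are not reported here. Comparisons the authors deposited were not used. The precision of a level is set by 5529459 to 9975972 counts per library.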

Additional observations from a re-analysis of the deposited data

Results flagged for a closer look

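The COL1 effect differed between PC3SFRP2 and PC3 cells for 1287 genes by the test of the difference (edgeR, adjusted p under 0.05), and the genes named in the report that were among them follow, each with the effect in PC3SFRP2 cells minus that in PC3 cells on the log2 scale. In PC3 cells alone no gene was called, and the count of differing genes fell to 2 without any of 6 single libraries. Under those omissions 4682 to 5172 genes had an unadjusted edgeR p under 0.05, against 6189 with all libraries. The count called was 515 with the GC correction and 0 with the other column. With the other column and the GC correction it was 24, and of the genes listed below only MAN1A1 and MT-ND6 were among these.

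The difference was positive for the cytoskeletal and epithelial genes ACTG1 (1.11), KRT8 (1.34) and CRB3 (2.09) and for the integrin gene ITGB5 (1.31). Among matrix genes it was positive for CCN1 (0.80), PLOD1 (1.47), COL6A2 (1.64) and COL2A1 (5.07) and negative for COL4A5 (-1.51). Among PC3SFRP2 libraries COL2A1 was high in the third COL1-PC3SFRP2 library alone. The value of SPARC, 10.67, depends on the prior count, since SPARC had 24 counts at most in a PC3SFRP2 library. Signalling genes with a positive difference were WNT10B (2.69), ID1 (1.52) and IGFBP2 (2.57), and BMPR2 had a negative one (-1.51). Of the stress genes, ATF4 (0.85), SDF2L1 (2.18) and TRIB3 (1.74) had positive differences and EIF2AK3 (-1.35) a negative one.

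The difference was also positive for UHRF1 (2.39), RPL13A (1.5), RPS16 (1.18) and ISG15 (2.38). It was negative for PCLAF (-3.89), RBMS3 (-1.91), MT-ND6 (-1.53), SDHD (-2.05) and MAN1A1 (-1.88). PCLAF was still called under each of these 6 omissions, next to the ribosomal pseudogene RPL23AP2.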

How the results depend on the processing

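The 7665 calls between COL1-PC3SFRP2 and CCP-PC3SFRP2 became 4711 in a fit of the 6 PC3SFRP2 libraries, 2900 with the GC correction, 3398 with the GC correction and without the third COL1-PC3SFRP2 library, 4 with the other column and 678 with the other column and the GC correction. The 683 calls beyond a log2 fold change of 2 became 155, 114, 2 and 12 under the last 4 settings, and 253 in the second alignment. The 362 list genes called became 184, 233, 3 and 80. The 1287 differing effects became 3921 by DESeq2, 3710 without a filter, 515 with the GC correction, 0 with the other column, 24 with the other column and the GC correction and 4008 in the second alignment. In PC3 cells the 0 calls became 6, 11, 2, 3, 23 and 35 under these settings in the same order, and 399 with the GC correction and without the third COL1-PC3SFRP2 library. The fit of the second alignment did not include the third COL1-PC3SFRP2 library. Leaving that library out of the sheet of triplicates gave 275 calls beyond a log2 fold change of 2, 4050 differing effects and 38 calls in PC3 cells. The causes of these changes were not tested. Leaving out 1 library at a time gave 5747 to 8768 calls, 275 to 1465 beyond a log2 fold change of 2, 282 to 413 list genes, 2 to 5515 differing effects and 0 to 38 calls in PC3 cells.

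Same-numbered COL1-PC3SFRP2 and CCP-PC3SFRP2 libraries correlated in their deviations at 0.0938, -0.175 and -0.0543, and differently numbered ones at -0.157 to 0.181. The deviations were taken from means of 3 libraries, so these values cannot decide whether replicate numbers pair the libraries. With the replicate block 6909 genes were called, 569 beyond a log2 fold change of 2, with 338 list genes, 2 differing effects and 0 calls in PC3 cells. With the block and the GC correction the same counts were 2509, 124, 168, 375 and 2. With the block and the other column, added after seeing the data, they were 1116, 16, 115, 0 and 6.

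Log2 fold changes turned sign, with a call before or after the change, for 13 named genes. With the GC correction, without and with the block, ITGA2 stood at 0.091, 0.086, MMP14 at -0.14, -0.14 and BMP4 at -0.051, -0.051. Under the GC correction and without the third COL1-PC3SFRP2 library the values were -0.58 for CCN2, 0.10 for ITGB1, -0.069 for DDR1, -0.0052 for ZYX, -0.68 for COL2A1, -0.11 for COL6A2, -0.039 for MMP14, -0.16 for LRP1, -0.25 for VIM and 0.26 for HSPA5. With the other column and the GC correction they were -0.15 for DDR1, -0.086 for ZYX, -0.68 for COL2A1, -0.088 for COL6A2, -0.049 for MMP14, -0.057 for LRP1, 0.38 for HSPA5 and -0.20 for IGFBP2. Of these values those of CCN2, VIM and HSPA5 were called, and the others were not. Signs also turned with no call on either side, for CCN2, VIM and HSPA5 under further settings and for SFRP2, CDH1, WNT4, CTNNB1 and FBLN2. COL2A1 stood at -0.17 with the other column and at -0.16 with the block as well. Scaling by DESeq2 or the upper quartile moved the median of all genes by less than 0.1.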
